A study of Homo sapiens with 6 samples.

Results

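The olfactory receptor genes of chromosome 11 were taken as the protein-coding genes whose symbol is OR, a number, 1 or 2 letters and a number, such as OR5B2. The rule found 171 such genes in RefSeq GRCh38.p14, of which 168 lie on the assembled chromosome and were counted, out of 1297 protein-coding genes of chromosome 11. The other 3, OR8U8, OR8U9 and OR9G9, are listed on an alternate sequence and could not be placed among the peaks. The 1129 remaining protein-coding genes of the chromosome were the comparison. The data are 6 lists of CUT&Tag peaks from MDA-MB-231, an established triple negative breast cancer cell line. NONO, a nuclear RNA- and DNA-binding protein, was profiled in control cells (NC, genotype WT) and in NONO knockdown cells (NONO-KD). Histone H3 phosphorylated at threonine 11 (H3T11ph) and histone H3 acetylated at lysine 27 (H3K27ac) were each profiled in NC and in PKM2 knockdown cells (PKM2-KD). PKM2 is a pyruvate kinase. The study used both small interfering RNA and lentiviral short hairpin RNA for knockdown, and which was used for these libraries is not given in the sources used here. Each group has 1 library, so no difference below has a replicate check or a p-value, and a change in the share of cells with a mark cannot be told apart from a change per cell.

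Olfactory receptors are G protein-coupled receptors that detect odorants in the nose. Each olfactory sensory neuron expresses a single receptor gene, and in nearly all other cells the family is silent. The genes are short, lie in large clusters and carry their coding sequence on a single exon. Class I receptors resemble those of fish, and class II receptors make up the rest of the mammalian family. H3K27ac marks active promoters and enhancers, so a family that is off in epithelial cells gives a baseline of peaks against which active genes can be read. Expression was not measured in these files, so silence here is background knowledge. OR51E1 and OR51E2 are the members best known for expression outside the nose, in prostate tissue.

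The cell line was checked on markers first. The mesenchymal genes EGFR, CAV1, VIM, CD44 and AXL each had an H3K27ac peak of at least 1132 bp within 1 kb of a gene end in NC cells, and AXL had the widest, at 7230 bp. The luminal genes ESR1, GATA3, PGR, ERBB3 and FOXA1 also had a peak each, the widest being 798 bp at GATA3 in NC cells. The olfactory neuron genes ADCY3, OMP, GNAL and CNGA2 had none wider than 125 bp in either H3K27ac list, and CNGA2, a subunit of the olfactory cyclic nucleotide-gated channel, had no peak at all.

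The promoters of the receptor genes differed from those of other genes of the chromosome in base composition. RefSeq promoters were matched for 135 of the 168 genes. In the 250 bases before the start, the median GC content was 36.4% over the 138 receptor promoters and 62% over the 1144 promoters of 818 other genes of the chromosome. The median number of CpG dinucleotides was 1 against 16.5, and 97.1% of receptor promoters held at most 3 CpG, against 19.3% of the others. The letters TAATTA, a homeodomain motif, were present on either strand in 23.2% of receptor promoters and in 3.06% of the others. The letters CCCNNGGG, the core of EBF-type sites, were present in 7.97% against 19.5%, and TATAAA in 34.1% against 8.57%. These matches are counts of letters and do not show binding.

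The 4 receptor promoters below are shown because a peak of the deposited lists touched each of them, and the promoter of EIF3M, a widely expressed translation factor subunit, is shown for contrast. Capitals mark CpG. The sequences are from RefSeq GRCh38.p14, and all 5 lie on the plus strand of chromosome 11. OR51E1 (chr11:4643732-4643981, 57.6% GC, 2 CpG) was the only receptor promoter touched in both H3K27ac lists. OR52K1 (chr11:4482396-4482645, 1 CpG) was touched in the NONO NONO-KD and H3K27ac PKM2-KD lists. OR8D4 (chr11:123901917-123902166, 1 CpG) was touched in the H3T11ph PKM2-KD and H3K27ac NC lists. OR52N2 (chr11:5808674-5808923) had the most CpG of any receptor promoter, 9, and was touched in the H3K27ac PKM2-KD list. EIF3M (chr11:32583581-32583830) held 26.
OR51E1: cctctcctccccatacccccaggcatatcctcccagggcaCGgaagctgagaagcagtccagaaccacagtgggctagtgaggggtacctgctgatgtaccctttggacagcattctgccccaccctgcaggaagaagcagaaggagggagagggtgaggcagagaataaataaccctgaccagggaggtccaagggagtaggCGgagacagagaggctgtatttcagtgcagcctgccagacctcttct
OR52K1: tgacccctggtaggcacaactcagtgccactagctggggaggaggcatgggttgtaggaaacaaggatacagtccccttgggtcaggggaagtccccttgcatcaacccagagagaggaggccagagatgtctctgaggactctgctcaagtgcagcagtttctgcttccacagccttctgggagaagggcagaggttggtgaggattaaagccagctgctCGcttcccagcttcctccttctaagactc
OR8D4: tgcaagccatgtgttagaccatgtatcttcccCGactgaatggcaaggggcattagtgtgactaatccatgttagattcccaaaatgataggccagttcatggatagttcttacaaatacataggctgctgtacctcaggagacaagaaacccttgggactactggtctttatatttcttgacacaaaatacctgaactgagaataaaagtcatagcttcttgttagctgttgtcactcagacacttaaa
OR52N2: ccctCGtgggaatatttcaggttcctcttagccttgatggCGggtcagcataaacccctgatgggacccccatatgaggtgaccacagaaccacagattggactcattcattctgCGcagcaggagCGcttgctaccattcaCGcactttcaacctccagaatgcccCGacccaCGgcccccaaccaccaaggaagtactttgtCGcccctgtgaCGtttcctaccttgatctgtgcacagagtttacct
EIF3M: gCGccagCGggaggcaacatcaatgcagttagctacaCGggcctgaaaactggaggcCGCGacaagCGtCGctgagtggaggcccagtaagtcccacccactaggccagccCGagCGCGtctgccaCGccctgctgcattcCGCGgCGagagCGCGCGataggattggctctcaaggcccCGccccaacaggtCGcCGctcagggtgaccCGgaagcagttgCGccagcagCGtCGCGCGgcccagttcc

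The receptor genes had fewer peaks than the other genes of the chromosome in all 6 lists. A gene was counted when any base of a peak lay within 1 kb of either of its ends. In NC cells 13 of 168 receptor genes had a NONO peak, or 7.74% (95% Wilson interval 4.58 to 12.8), against 398 of 1129 other genes, or 35.3% (32.5 to 38.1). Over all 19821 protein-coding genes of the genome 28.4% had one. In NONO-KD cells the receptor count was 8, or 4.76%, against 13.2% of the other genes and 10% of all genes. For H3T11ph 6 receptor genes had a peak in NC cells, or 3.57%, against 21.3% of the other genes and 17.9% of all genes. In PKM2-KD cells the count was 4, or 2.38%, against 19.3% and 17.4%. For H3K27ac 86 receptor genes had a peak in NC cells, or 51.2% (43.7 to 58.6), against 83.6% of the other genes and 78.2% of all genes. In PKM2-KD cells 33 had one, or 19.6% (14.3 to 26.3), against 70.4% and 65%. The intervals cover counting error only, and genes of a list are not replicates.

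The difference in share between receptor genes and other genes was below 0 in each list, and its 95% Newcombe interval left out 0 in each. For NONO it was -27.5 percentage points (-31.8 to -21.8) in NC cells and -8.44 (-11.6 to -3.71) in NONO-KD cells. For H3T11ph it was -17.8 (-20.9 to -13.2) in NC cells and -16.9 (-19.7 to -12.7) in PKM2-KD cells. The H3K27ac difference was -32.4 (-40.2 to -24.6) in NC cells and -50.8 (-56.7 to -43.6) in PKM2-KD cells.

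Other genes inside the clusters had peaks more often than the receptor genes. The clusters hold 61 other protein-coding genes, among them TRIM21 and TRIM34, genes of antiviral ubiquitin ligases. A cluster joins receptor genes less than 1 Mb apart. It therefore takes in stretches without a counted receptor gene, such as that from OR52W1 to OR2AG2 (chr11:6200186 to 6765626). Some of the 61 genes may lie in such stretches, so they are not a control of the same immediate surroundings. Of these 61 genes, 82.0% had an H3K27ac peak in NC cells and 62.3% in PKM2-KD cells, and 13 had a NONO peak in NC cells, or 21.3%. For NONO in NC cells and H3T11ph in PKM2-KD cells these genes were at 21.3% and 9.84%, against 36.0% and 19.9% of genes outside the clusters. Receptor genes minus these 61 genes, the H3K27ac difference was -30.8 points (-41.5 to -17.1) in NC cells and -42.7 (-54.9 to -28.4) in PKM2-KD cells. In the 4 NONO and H3T11ph lists the differences ran from -13.6 to -7.46, and all 4 intervals left out 0. By density of peaks at gene ends, receptor genes over these 61 genes, NONO in NC cells gave 0.410 (0.179 to 0.947). In the other 3 NONO and H3T11ph lists the intervals included 1. The ratios were 0.428 (0.147 to 1.28) for NONO-KD, 0.326 (0.0906 to 1.13) for H3T11ph in NC and 0.381 (0.0876 to 1.65) in PKM2-KD cells. The H3K27ac ratios were 0.512 (0.386 to 0.680) and 0.260 (0.170 to 0.393). TRIM34 had H3K27ac peaks of 1327 bp in NC and 1344 bp in PKM2-KD cells, wider than any at a receptor gene.

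**Figure D1:**
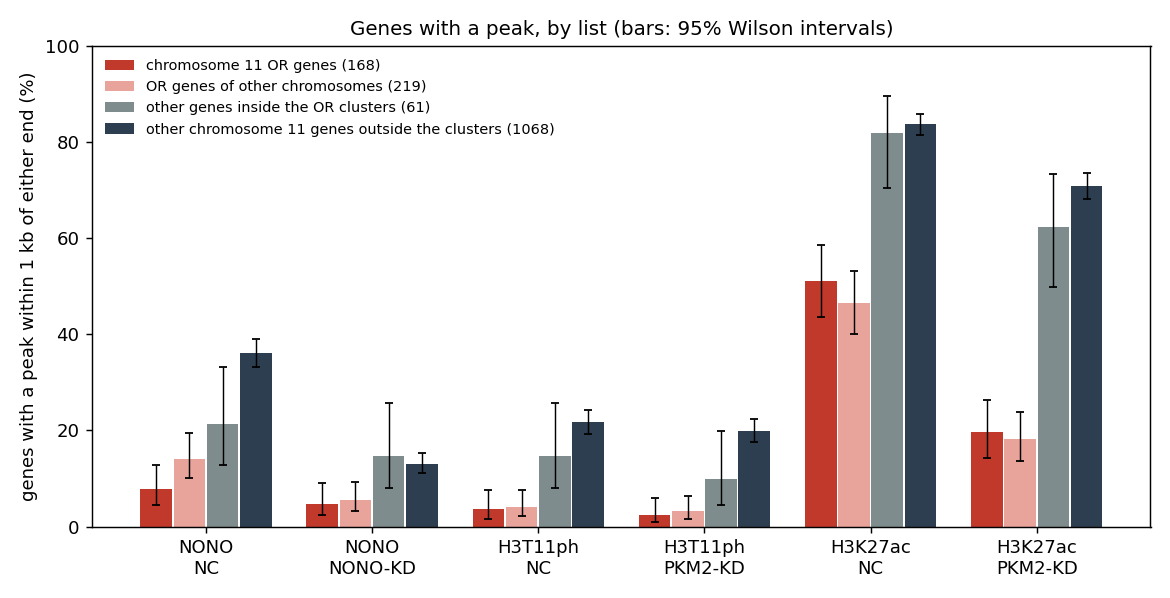
Share of genes with a peak within 1 kb of either end (y axis, percent) in each of the 6 lists (x axis), for the 168 receptor genes of chromosome 11, 219 receptor genes of other chromosomes, 61 other genes inside the clusters and 1068 other chromosome 11 genes outside them. Bars carry 95% Wilson intervals, and in the H3K27ac lists the receptor genes stand at 51.2% and 19.6% against 82.0% and 62.3% for other genes inside the same clusters.

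Receptor genes on other chromosomes gave shares in the same range. Of 219 such genes 46.6% had an H3K27ac peak in NC cells and 18.3% in PKM2-KD cells, which differed from the chromosome 11 genes by 4.62 points (-5.38 to 14.5) and 1.38 points (-6.37 to 9.44). The NONO share in NC cells was 14.2%, and the chromosome 11 genes lay -6.42 points from it (-12.5 to 0.0253). The intervals of all 6 differences included 0, which does not show that the 2 groups were alike.

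Measured as density, the receptor gene ends stood at the level of sequence far from gene ends. The merged 1 kb windows around receptor gene ends cover 0.572 Mb, those around other gene ends 4.02 Mb, and 104.5 Mb of the chromosome lies over 10 kb from any protein-coding gene end. This far sequence includes the interiors of long genes, so it is not intergenic sequence alone. H3K27ac peaks in NC cells numbered 211.5 per Mb (95% Poisson interval 175.5 to 252.7) at receptor ends, 443 per Mb at other ends and 226.4 per Mb in far sequence. In PKM2-KD cells the densities were 71.7 (51.4 to 97.2), 315.6 and 74.9 per Mb. Relative to far sequence the receptor ends were therefore at 0.934 (0.775 to 1.12) and 0.957 (0.686 to 1.299), whereas the other ends were at 1.96 and 4.22.

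The same held for NONO and H3T11ph, with wider intervals. The 14 NONO peaks at receptor ends in NC cells gave 24.5 per Mb (13.4 to 41.1), against 108.4 per Mb at other ends and 29.4 per Mb in far sequence. In NONO-KD cells the 9 peaks gave 15.7 per Mb, against 34.1 and 16.2. H3T11ph gave 10.5 per Mb at receptor ends in NC cells and 8.74 per Mb in PKM2-KD cells, against 15.8 and 12.8 per Mb in far sequence. The ratios to far sequence ran from 0.665 to 0.971 in these 4 lists and all 4 intervals included 1, so a density below that of far sequence was not detectable at these counts. Against other gene ends the ratios were 0.226 and 0.462 for NONO and 0.185 and 0.177 for H3T11ph.

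**Figure D2:**
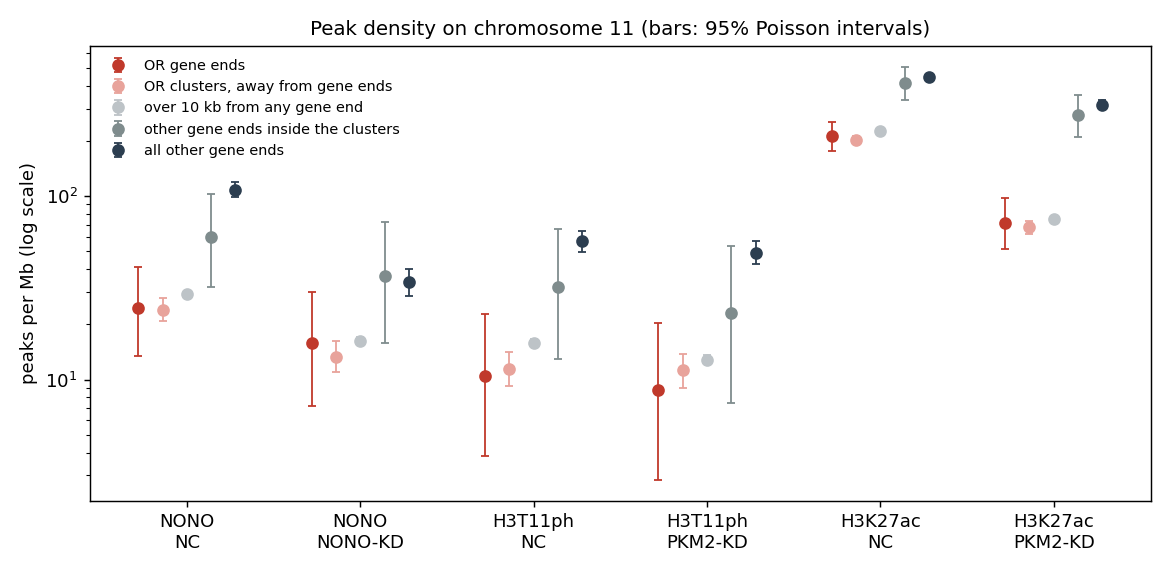
Peaks per Mb (y axis, log scale) in each list (x axis) at receptor gene ends, in the rest of the receptor clusters, over 10 kb from any gene end, at other gene ends inside the clusters and at all other gene ends. Bars are 95% Poisson intervals, and in the H3K27ac PKM2-KD list the receptor ends lie at 71.7 per Mb beside 74.9 per Mb far from gene ends and 315.6 per Mb at other ends.

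No rise of peaks toward the gene was seen at receptor genes. In PKM2-KD cells 304.7 H3K27ac summits per 1000 gene ends lay in the first kb outward from other genes, and each of the next kb, from 2 to 10, held between 146.1 and 186. At receptor genes the first kb held 44.6 per 1000 ends, and the next held between 29.8 and 86.3. In NC cells the receptor values were 163.7 in the first kb and 131 to 220.2 beyond, against 413.6 and 273.7 to 314.4 at other genes. For H3T11ph the first kb held 70.4 per 1000 ends at other genes in NC cells against a median of 28.3 further out. At receptor genes it held 5.95 against a median of 8.93, from few summits.

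**Figure D3:**
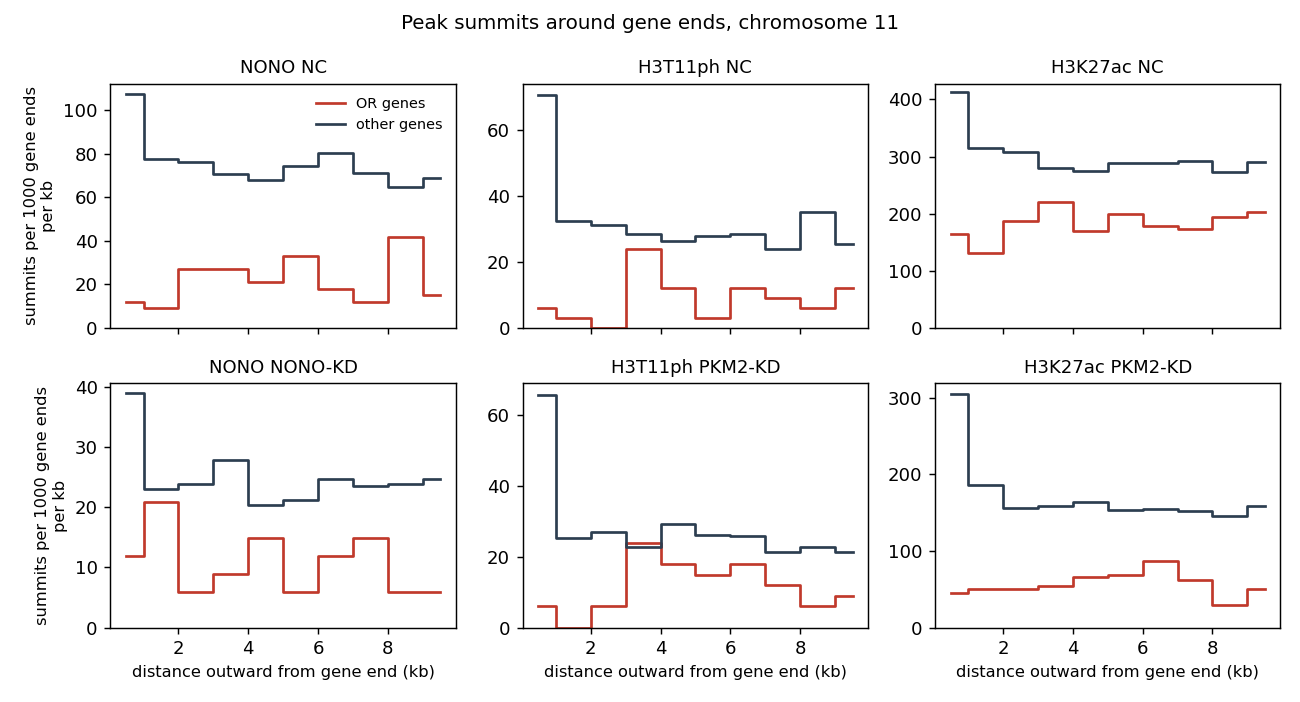
Peak summits per 1000 gene ends per kb (y axis) against distance outward from the gene end in kb (x axis), both ends of each gene pooled, for receptor genes and other genes of chromosome 11 in each list. Other genes peak in the first kb, at 304.7 in the H3K27ac PKM2-KD list, and in none of the 6 lists is the first kb the highest at receptor genes.

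Inside the span of any receptor gene the density was higher than in the rest of the windows. The inside part, 0.270 Mb, includes the flanks of short receptor genes that lie within the span of a longer one. It held 67 H3K27ac summits in NC cells, or 247.7 per Mb, and the part outside, 0.302 Mb, held 50, or 165.7 per Mb. The ratio was 1.49 (1.02 to 2.20), and in PKM2-KD cells it was 2.15 (1.06 to 4.57), from 25 summits inside and 13 outside. NONO in NC cells gave 11 summits inside and 3 outside, a ratio of 4.09 (1.08 to 22.8). The NONO peak before the 5′ end of OR56A5 was counted inside, since it lies within the longer OR56A3. Set against their own genes, 10 of these NONO peaks overlapped the gene, 3 lay before the 5′ end and 1 after the 3′ end. The other 3 lists had at most 5 summits on either side, and their intervals included 1. At other genes the H3K27ac ratios were 1.06 (0.961 to 1.17) and 1.11 (0.985 to 1.25), and H3T11ph in NC cells was denser outside, at 0.704 (0.536 to 0.925). This split was chosen after the profile had been seen.

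Most receptor genes had a peak in no list or in 1. Of the 168 genes, 58 had none, 78 had a peak in 1 list, 24 in 2 and 8 in 3. None had a peak in 4 or more lists, which allows a share of up to 1.79%, whereas 217 of the 1129 other genes did, or 19.2%. H3K27ac peaks and nothing else were carried by 80 receptor genes. NONO or H3T11ph peaks were present at 30, of which 13 had no H3K27ac peak. No receptor gene had both a NONO and an H3T11ph peak. These counts by mark were not taken over other genes. Few receptor genes had either peak, so the lack of genes with both is not read as a trait of the family.

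**Figure D4:**
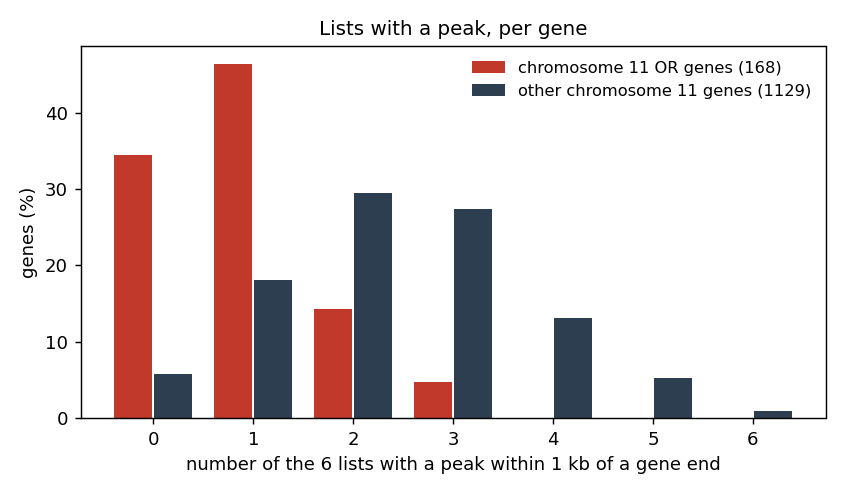
Share of genes (y axis, percent) by the number of the 6 lists in which they had a peak (x axis), for 168 receptor genes and 1129 other genes of chromosome 11. Receptor genes fall in 0 to 3 lists, with 34.5% in none, and 5.76% of the other genes are in none.

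The tallest and widest H3K27ac peaks lay at other genes, and the medians differed less. In NC cells the 121 peaks at receptor genes had a median fold enrichment over the local background of 4.33, against 4.96 for 1781 peaks at other genes and 4.33 elsewhere on the chromosome. The median width was 112 bp, the narrowest the list holds, in all 3 places. At least 2 times that width was reached by 12.4% (7.66 to 19.4) of the receptor peaks, 30.9% (28.8 to 33.1) of those at other genes and 11.3% elsewhere. The maxima were 10.5-fold and 398 bp at receptor genes and 72.2-fold and 5254 bp at other genes. In PKM2-KD cells the 41 peaks had a median fold of 4.88 and a median width of 192 bp, with maxima of 13.0 and 383 bp. The 1269 peaks at other genes reached 120.1-fold and 7226 bp, with a median fold of 6.22 and a median width of 289 bp, and elsewhere the medians were 5.42-fold and 175 bp. The height in fragments, recovered from fold and p, was a median of 8 at receptor genes, 16 at other genes and 10 elsewhere in PKM2-KD cells. In NC cells it was 10, 14 and 11.

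No H3K27ac peak of 1 kb or more lay at a receptor gene in either list, 0 of 168, which allows a share of up to 1.79%. Of all 19821 genes, 6.96% had such a peak in NC cells and 16.9% in PKM2-KD cells. Among the other genes inside the clusters it was 8 of 61 and 15 of 61, and among all other chromosome 11 genes 7.88% and 20.02%. The 219 receptor genes of other chromosomes had none either. The 1 kb limit was chosen after widths had been seen.

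The few NONO and H3T11ph peaks at receptor genes had a higher median fold than those at other genes. NONO peaks in NC cells had a median fold of 41.6 at receptor genes, 21.1 at other genes and 26.3 elsewhere on the chromosome. In NONO-KD cells the medians were 54.0, 22 and 36.0. H3T11ph medians were 17.9, 15 and 16.7 in NC cells and 28.2, 16.7 and 22.1 in PKM2-KD cells. Heights in fragments were recovered only for peaks with −log10 p below 200. For NONO in NC cells these were 8 of 14 receptor peaks and 335 of 436 at other genes, with medians of 59.5 and 60. In NONO-KD cells they were 7 of 9 and 127 of 137, with medians of 30 and 46. The NONO peaks of lowest p are thus missing, and these medians cannot rank the 2 groups by height. For H3T11ph the median heights at receptor and other genes were 32.5 and 39.5 in NC cells and 45 and 46 in PKM2-KD cells. None of the 14, 9, 6 and 5 peaks at receptor genes in these lists reached 2 times the narrowest width in its list, while 6.65%, 7.30%, 16.2% and 14.6% of those at other genes did. The Wilson bounds on these counts of 0, which run up to 21.5%, 29.9%, 39.03% and 43.4%, include those shares. Median widths for NONO were 269 bp at both receptor and other genes in NC cells and 129 and 124 bp in NONO-KD cells.

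Within each pair of lists few receptor genes were shared. For NONO 12 receptor genes had a peak in NC cells only and 7 in NONO-KD cells only, against 24.2% and 5.88% of all genes. A peak in both lists was found at OR5M8 alone, against 4.14% of all genes, and its 2 peaks did not overlap. For H3T11ph 6 genes were in the NC list only and 4 in the PKM2-KD list only, against 11.9% and 11.4% of all genes, and none in both, against 5.98%. None of the 14 NONO and none of the 6 H3T11ph NC peaks at receptor genes overlapped a peak of the knockdown list, whereas 4.36% of NONO and 15.8% of H3T11ph peaks at other genes did. The counts at receptor genes are too small to tell these shares apart, since 0 of 14 has a Wilson interval up to 21.5%.

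For H3K27ac 64 receptor genes had a peak in NC cells only, 11 in PKM2-KD cells only and 22 in both, against 20.5%, 7.23% and 57.7% of all genes. Of the 86 genes in the NC list 25.6% (17.5 to 35.7) were also in the PKM2-KD list, against 76.4% (73.6 to 79.0) of the other genes. Each share lay near that of its whole set with a PKM2-KD peak, 19.6% of receptor genes and 70.4% of other genes. The contrast is therefore not read as a loss particular to receptor genes. Only 7 of 121 NC peaks at receptor genes, 5.79% (2.83 to 11.5), overlapped a PKM2-KD peak, against 41.5% of those at other genes. Those 7 peaks lay at 8 genes: OR2AG2, OR51D1, OR51E1, OR52H1, OR52W1, OR5P2, OR6M1 and OR8B12. OR51D1 and OR51E1 lie side by side and share a peak. At the other 14 genes found in both lists the peaks of NC and PKM2-KD cells lay apart.

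The receptor count was lower in the H3K27ac list of PKM2-KD cells, which is also the shorter list. The H3K27ac list of NC cells holds 572970 peaks over the genome and that of PKM2-KD cells 212856, and 78.3% of the NC peaks of chromosome 11 were at exactly the narrowest width against 1.22% of the PKM2-KD peaks. When the NC list was reduced to its 212856 peaks of lowest p, 34 receptor genes kept a peak, against 33 in PKM2-KD cells. The difference from other genes in NC cells was then -40.7 points, against -50.8 in PKM2-KD cells. A cut by p does not equalise read depth or peak calling, and the cause of the lower count was not tested. For NONO, with 89474 and 44349 peaks, lists of equal length gave 8 receptor genes in both NC and NONO-KD cells. The H3T11ph lists hold 42674 and 36583 peaks and gave 6 and 4 genes at equal length as well. A limit of 5 on −log10 q left 24 and 18 genes in the H3K27ac lists and none fewer in the other 4.

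Receptor shares differed between clusters in the H3K27ac PKM2-KD list, and by class and distance to other genes the intervals overlapped. The 55 class I genes, families 51, 52 and 56 on 11p15, had an H3K27ac peak at 56.4% in NC cells and 21.8% in PKM2-KD cells. For the 113 class II genes the shares were 48.7% and 18.6%, with overlapping intervals (class I 43.3 to 68.6 and class II 39.7 to 57.8 in NC cells). The genes form 7 groups parted by more than 1 Mb, with 67, 7, 2, 48, 21, 1 and 22 members in order along the chromosome, the single gene being OR2AT4. The distal group of 22 genes, chr11:123753580-124571374, had the highest H3K27ac shares of the larger groups, 15 genes in NC cells and 9 in PKM2-KD cells, and no NONO peak in NC cells. The group of 48, chr11:54603069-56989843, had 21 and 4. In PKM2-KD cells these are 40.9% (23.3 to 61.3) and 8.33% (3.29 to 19.6), intervals that do not overlap, and the 2 groups were picked out after their values had been seen. Receptor genes under 10 kb from another protein-coding gene had an H3K27ac peak at 9 of 19 in NC cells and 3 of 19 in PKM2-KD cells. Over 50 kb away the counts were 63 and 24 of 125, so in these bands nearness to other genes did not go with more peaks. The band under 10 kb also holds receptor genes that lie within the body of another gene, such as OR51G1 and OR51A4. It is therefore not a measure of nearness to gene ends alone.

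Family 10, odorant receptors of class II, had an H3K27ac peak at 9 of 16 genes in PKM2-KD cells, 56.3% (33.2 to 76.9), against 24 of 152 receptor genes of all other families, 15.8% (10.8 to 22.4). In NC cells the count was also 9 of 16, near the 51.2% of all receptor genes. Of the 9 genes, 6 lie in the distal group, where close copies are neighbours (OR10S1, OR10G6, OR10G4, OR10G9, OR10G8 and OR10D3). Families 4 and 8 had 1 of 24 and 1 of 22 in the same list. The family was picked out after its values had been seen.

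Among genes with CpG-poor promoters, receptor genes less often had an H3K27ac peak within 1 kb of a gene end. Over the promoter itself the shares were alike in NC cells. Among genes with at most 3 CpG in the promoter, 48.9% of 131 receptor genes had an H3K27ac peak in NC cells against 68.0% of 122 other genes, a difference of -19.2 points (-30.5 to -7.02). In PKM2-KD cells the shares were 16.8% and 36.1%, a difference of -19.3 points (-29.6 to -8.44). In the 4 NONO and H3T11ph lists the differences between these CpG-poor genes ran from -6.41 to -2.80, and each interval included 0. Other genes with over 3 CpG had an H3K27ac peak at 87.4% and 79.9%. The 250-base promoter itself was touched by an H3K27ac peak at 17 of 135 receptor genes in NC cells and 6 of 135 in PKM2-KD cells. Of 818 other genes it was 45.5% and 52.7%. Among genes with at most 3 CpG it was 15 of 131 receptor genes and 14 of 122 other genes in NC cells, 11.5% of each. In PKM2-KD cells it was 5 of 131 (1.64 to 8.62%) and 13 of 122 (6.33 to 17.4%), with overlapping intervals. A peak touched the receptor promoter at 2 genes in each NONO list, at none in the H3T11ph NC list and at 3 in the H3T11ph PKM2-KD list. Of the 818 other genes 13.9% and 5.75% were touched for NONO in NC and NONO-KD cells. For H3T11ph it was 11.9% and 10.3% in NC and PKM2-KD cells. Among the 122 CpG-poor other genes the counts in these lists were 2, 1, 1 and 0, similarly few.

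The 8 receptor genes with a peak in 3 lists were OR10A5, OR5M8, OR52K1, OR10G9, OR5P2, OR52N2, OR2AT4 and OR52K2. OR10A5 (gene ID 144124) had the tallest NONO peak of the family, 144.8-fold at chr11:6844859-6845127, in NC cells and 556 bp before its 5′ end, and no NONO peak in NONO-KD cells. Its H3K27ac peaks were low, 3.60-fold in NC cells and 4.34-fold at 2 places in PKM2-KD cells. OR5M8 had a NONO peak of 95.3-fold in NC cells, chr11:56490516-56490784, and another of 16.4-fold in NONO-KD cells, chr11:56490838-56490966, both within the gene. OR9I1 followed, with 96.9-fold for NONO in NC cells within the gene and 4.69-fold for H3K27ac. OR51A4 had the second tallest NONO peak in NC cells, 105.8-fold, and no peak in any other list.

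OR52K1 was the member at which a NONO and an H3K27ac peak overlapped before the 5′ end. In NONO-KD cells its NONO peak was 65.7-fold, chr11:4482409-4482534, 112 bp before the gene. In PKM2-KD cells an H3K27ac peak of 3.83-fold and 344 bp touched the same bases, and a second one inside the gene, at 13.0-fold, was the tallest H3K27ac peak of the family. NC cells had no NONO peak there and 2 H3K27ac peaks, of 5.05- and 4.69-fold, further into the gene. The neighbouring OR52K2 had an H3T11ph peak of 12.4-fold in NC cells, overlapped by an H3K27ac peak of 8.13-fold in PKM2-KD cells.

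OR52N2, with the most CpG, had H3K27ac peaks of 13.0-fold, 79 bp before its 5′ end, and 3-fold in PKM2-KD cells. In NC cells its only H3K27ac peak was the widest of the family, 398 bp, and 5.78-fold, near the other end of the gene. OR5P2 had H3K27ac peaks that overlapped between NC cells (5.05-fold) and PKM2-KD cells (9.22-fold), and a NONO peak of 46.9-fold in NC cells. OR2AT4, the single gene that lies alone, had an H3T11ph peak of 23.3-fold in NC cells and H3K27ac peaks of 5.78- and 4.88-fold in NC and PKM2-KD cells. OR10G9 had NONO peaks of 68.8- and 5.11-fold in NONO-KD cells alone. These values come from 1 library each, and at no receptor gene did the same NONO or H3T11ph peak recur in the second list of its pair.

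**Figure D5:**
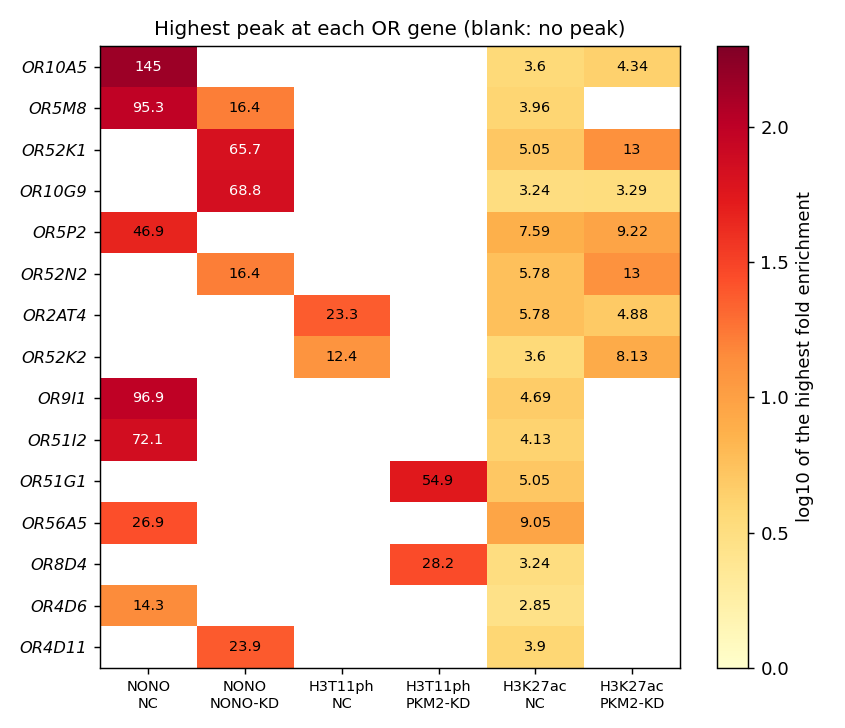
Highest fold enrichment (number and colour, log10 scale) at the 15 receptor genes with peaks in the most lists (rows) in each list (columns), with blanks where no peak lay within 1 kb of a gene end. NONO and H3T11ph values from 12.4 to 144.8 sit in scattered cells, and H3K27ac values stay between 2.85 and 13.0.

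H3T11ph peaks at receptor genes were found in NC cells at 6 genes, the tallest being 31.3-fold at OR4S2, 25.5-fold at OR5M1 and 23.3-fold at OR2AT4. In PKM2-KD cells OR51G1 had 2, of 54.9- and 35.1-fold, and OR8D4 and OR8U3 had 28.2- and 22.1-fold. The tallest peak at OR51G1 and that at OR8D4 were each touched by an H3K27ac peak of NC cells, of 3.96- and 3.24-fold. NONO-KD cells had their tallest receptor peaks at OR5B3 (79.8-fold), OR8G5 (75.9-fold) and OR10G9. The tallest H3K27ac peaks in NC cells were 10.5-fold at OR56A1 and 9.41-fold at OR4C46 and at the peak shared by OR51D1 and OR51E1. The widest were 398 bp at OR52N2, 352 bp at OR51S1 and 348 bp at OR10G6, and in PKM2-KD cells 383 bp at OR52W1, 352 bp at OR51T1 and 347 bp at OR10S1. Among the genes with peaks in 2 lists, OR51I2, OR56A5 and OR4D6 had NONO peaks of 72.1-, 26.9- and 14.3-fold in NC cells, and OR4D11 had one of 23.9-fold in NONO-KD cells. Each of these 4 genes also had an H3K27ac peak in NC cells, of 9.05-fold at OR56A5 and at most 4.13-fold at the others.

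Of OR51E1 and OR51E2, the members known from prostate, OR51E1 had as many H3K27ac peaks in NC cells as any receptor gene. OR51E1 (chr11:4643982-4655488) had 3 H3K27ac peaks in NC cells, where the receptor mean was 0.738, and 1 in PKM2-KD cells. Other receptor genes, such as OR51G1 and OR52W1, also had 3 in NC cells. That of 9.41-fold, chr11:4643788-4643995, lay across its start and overlapped one of 5.42-fold in PKM2-KD cells, at the promoter printed above. OR51E2 (chr11:4680171-4697853) had 2 peaks of 6.504-fold in NC cells and none in PKM2-KD cells. Neither gene had a NONO or H3T11ph peak in any list.

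Lists of other genes give the range around this baseline. All 15 widely expressed genes of chromosome 11, such as EIF3M, FTH1, a ferritin chain, and HSPA8, a chaperone, had an H3K27ac peak in both lists, and their widest peaks had a median of 897 bp in NC cells and 1287 bp in PKM2-KD cells. Of 26 genes typical of other tissues, such as INS and MYOD1, 16 had one in NC cells and 11 in PKM2-KD cells, and the receptor share lay -10.3 points (-28.0 to 10.1) and -22.7 points (-42.1 to -4.63) from theirs. The 17 genes of olfactory signalling and receptor choice, taken from any chromosome, such as LHX2, EBF1 and RTP1, were at 12 and 7. The MRGPR genes, itch and pain receptors and another G protein-coupled receptor family of the chromosome, were at 4 and 2 of 8.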

How the data were processed

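CUT&Tag for NONO, H3T11ph and H3K27ac was carried out by the authors in MDA-MB-231 cells, with 1 library in each of 6 groups. The deposited files are narrow peak lists on hg38 (the same coordinates as GRCh38). Per the labels the submitters' processing notes name FastQC 0.11.9, cutadapt 1.18, SAMtools 1.3.1 and MACS2 2.1.1.20160309. The aligner, the treatment of reads that match several places, any control library and the calling thresholds are not given in the sources used here. The lists hold, per the deposited columns, a score, a fold enrichment (a ratio to local background) and −log10 p-values and q-values as the authors' peak caller gave them, 1 list per library and none pooled. Read depths are unknown.

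Genes were taken from RefSeq GRCh38.p14. Protein-coding genes listed on sequences outside the assembled chromosomes were left out, 153 over the genome and 3 of them receptor genes. A peak was counted at a gene when it touched a window of 1 kb around either end, and the windows covered 3445 bp on average for receptor genes (median length 1103 bp) and 3958 bp for other genes (18221 bp). Shares carry 95% Wilson intervals, differences Newcombe intervals, densities Poisson intervals and ratios of densities exact binomial intervals. A count of 0 was read as allowing up to 3 counts. Fragment heights were recovered from fold and p for peaks with −log10 p below 200, and matched 99.1% of the H3K27ac NC peaks tried and 100% of the others. The recovery scaled fragments by 0.521 in the H3K27ac NC list and by 1 in the other lists, so these lists were not scaled alike. Clusters were receptor genes less than 1 Mb apart. Genes named are the 15 with peaks in the most lists (ties by summed −log10 q), the 3 of highest fold per list and the 3 with the widest peaks per H3K27ac list, with others named where a count is 5 or fewer or as examples. OR51E1 and OR51E2 were added as background members, and OR52H1, OR2AG2, OR6M1 and OR8B12 after their overlaps were seen. The members and lists were chosen with earlier results of these data known. The counting functions were tested on simulated data. Alternatives were stricter q, wider peaks, other windows, whole gene bodies, 5′ ends alone, equal list lengths and other comparison sequence. Python 3.11.15, numpy 2.4.6, scipy 1.17.1, pandas 2.3.3, statsmodels 0.14.6 and matplotlib 3.10.9 were used.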

Additional observations from a re-analysis of the deposited data

Results flagged for a closer look

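In the lists as deposited, the gap between receptor genes and other chromosome 11 genes changed between NC and PKM2-KD cells. It moved in opposite directions for the 2 histone marks. For H3T11ph the difference in share narrowed, with a change of 0.847 percentage points, and for H3K27ac it widened, with a change of -18.4 points. The difference between these changes was not tested, since each group has 1 library. As a ratio of shares, other genes over receptor genes, both rose, from 5.98 to 8.11 for H3T11ph and from 1.63 to 3.58 for H3K27ac. At equal list lengths the H3K27ac difference was -40.7 points in NC cells and -50.8 in PKM2-KD cells. The H3T11ph difference was then -16.3 points in NC cells and -16.9 in PKM2-KD cells, so it no longer narrowed. In the lists as deposited the H3T11ph intervals, -20.9 to -13.2 and -19.7 to -12.7, overlapped for most of their length.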

How the results depend on the processing

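No paired analysis was possible because with 1 library a group there are no replicate numbers. The receptor share lay below that of other genes in 48 of 48 alternative values and the interval left out 0 in 47. The exception was NONO-KD when only peaks of 2 times the narrowest width or more counted. The density ratio to gene ends lay below 1 in 30 of 30 alternative values and its interval in 26. The exceptions were the same NONO-KD value and, against gene ends inside the clusters, NONO-KD (0.428, up to 1.28) and H3T11ph (0.326, up to 1.13, and 0.381, up to 1.65). Below, values follow the order NONO NC, NONO-KD, H3T11ph NC and PKM2-KD, H3K27ac NC and PKM2-KD where several are given. Wide peaks alone gave differences of -2.66, -0.974, -4.25 and -3.54 points in the first 4 lists, and density ratios of 0, 0, 0, 0, 0.192 and 0.108, since they left 0, 0, 0, 0, 16 and 11 receptor genes. A −log10 q of at least 5 left 24 and 18 receptor genes for H3K27ac, with ratios of 0.222 and 0.133. A 2.5 kb window gave -39.0, -13.7, -26.4 and -24.7 points, and -18.4 for H3K27ac NC. Whole genes plus 1 kb gave -55.8, -38.1, -42.1 and -41.9, and -60.4 for H3K27ac PKM2-KD, where long genes offer more bases. Lists of equal length, with 8 and 34 receptor genes for NONO NC and H3K27ac NC, gave -17.2 and -40.7. Against other genes inside the clusters the differences were -13.6 for NONO NC, -11.2 and -7.46 for H3T11ph and -42.7 for H3K27ac PKM2-KD, and the NONO NC ratio was 0.410. The 5′ end alone gave -19.4 for NONO NC and -58.9 for H3K27ac PKM2-KD. Against sequence over 10 kb from gene ends the ratios were 0.832, 0.971, 0.665, 0.681, 0.934 and 0.957. The remaining alternatives stayed within the main intervals. Summits in place of whole peaks, equal lengths for gene counts and receptor genes over 10 kb from other genes were chosen after seeing the data. Counts of 4 to 14 peaks limit the NONO and H3T11ph lists, and reads that match several receptor copies may be lost or shared, which was not tested.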

Other observations

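Receptor pseudogenes of chromosome 11 were counted as a further set. Windows of pseudogenes that overlap those of receptor genes were not removed, so the 2 sets are not fully separate. Of 205 pseudogenes, 85 had an H3K27ac peak in NC cells, 41.5%, and 39 in PKM2-KD cells, 19.02%. The intact receptor genes differed from them by 9.73 points (-0.424 to 19.6) and 0.618 points (-7.33 to 8.82). NONO peaks were present at 12 and 10 pseudogenes in NC and NONO-KD cells, and H3T11ph peaks at 7 and 2 in NC and PKM2-KD cells. The intervals of all 6 differences included 0.

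Sequence inside the receptor clusters and over 10 kb from any gene end had fewer H3K27ac peaks than such sequence outside the clusters. The densities were 203 against 227.4 per Mb in NC cells, a ratio of 0.893 (0.834 to 0.955), and 66.1 against 75.3 per Mb in PKM2-KD cells, a ratio of 0.878 (0.778 to 0.988). For NONO in NC cells the ratio was 0.720 (0.579 to 0.885), from 93 peaks in 4.34 Mb of the clusters, and for H3T11ph in PKM2-KD cells 0.709 (0.504 to 0.970). In NONO-KD cells and for H3T11ph in NC cells the intervals included 1, at 0.891 (0.682 to 1.15) and 0.766 (0.571 to 1.007). Receptor gene ends, set against this cluster sequence, stood at 1.04 (0.854 to 1.26) and 1.08 (0.762 to 1.51) for H3K27ac in NC and PKM2-KD cells.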
